A study of Mus musculus with 14 samples.

Results

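The 10 genes described here are the interleukin-1 family ligands Il1a, Il1b, Il1rn, Il18 and Il33 and the receptors Il1r1, Il1rap, Il18r1, Il1rl1 and Sigirr. They were chosen by name from the family, not by a measured value, and are 10 of the 55536 Ensembl genes in the deposited tables. All 10 had at least 10 counts in total and were tested. Poly(A) RNA came from the hippocampi of 14 perfused mice that were 10 months old, and each mouse gave 1 library. MRL mice (B6.MRL-Faslpr/J, n = 4) carry the lpr mutation of Fas, which leaves a death receptor of lymphocytes without function and gives a spontaneous lupus-like disease. MRL-IRAK4-KD mice (n = 4) carry lpr and a kinase-dead form of IRAK4. IRAK4-KD mice (n = 3) carry the kinase-dead form without lpr by their label, and C57BL6/J mice (n = 3) carry neither. All 4 groups were on the C57BL/6 background, so that the kinase-dead form was compared with wild type once with lpr and once without.

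Interleukin-1 family cytokines are alarm signals of innate immunity. IL-1α and IL-1β bind IL-1R1, which recruits the accessory chain IL-1RAP, and the paired intracellular domains bind MyD88 and IRAK4, whose kinase activity leads to NF-kappaB. IL-18 and IL-33 signal through their own receptors by the same adaptor, and the family holds its own brakes in the receptor antagonist IL-1RN, the single-domain receptor SIGIRR and soluble receptor forms. In the brain, microglia are the main source of IL-1, glia hold IL-33 in the nucleus, and endothelial cells and dentate gyrus neurons are known to carry IL-1R1. In the hippocampus the family is known for effects on memory.

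None of the 10 members differed between groups at an adjusted p below 0.05 (edgeR's quasi-likelihood test, Benjamini-Hochberg adjustment over 38070 genes). In MRL over MRL-IRAK4-KD mice, 0.0972% of all genes tested, called in either direction, passed this threshold, against 0.147% in IRAK4-KD over C57BL6/J, 0% in MRL over C57BL6/J, 0.0735% in MRL-IRAK4-KD over IRAK4-KD and 0.00263% for the interaction of lpr with the mutation. DESeq2 and limma-voom also called 0 members in each comparison, although in MRL over C57BL6/J they called 197 and 67 genes in all. At an unadjusted p below 0.05, Il1b differed for MRL against MRL-IRAK4-KD mice, which is 1 of 10 members beside 11.4% of all genes. Sigirr differed between MRL and C57BL6/J mice (1 of 10 members, beside 5.55% of all genes) and between MRL-IRAK4-KD and IRAK4-KD mice (1 of 10, beside 8.63%). No member reached it in IRAK4-KD over C57BL6/J, where 3.8% of all genes did, or for the interaction, where 4.17% did. The members' counts lay near the background.

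Libraries held between 279941472 and 572398312 counts. As a check of the labels, full-length Fas was read in each library. It was at 0 in the 8 lpr libraries and at 345 to 584 counts in C57BL6/J. Of the IRAK4-KD libraries, replicates 1 and 2 held 360 and 386 counts, whereas the library labelled IRAK4-KD replicate 3 held 0, against its label. It also held 514 counts of a shorter Fas transcript, which had 268 to 964 counts in the lpr libraries and 0 to 7 in the remaining ones. This library was kept under its label. MRL-IRAK4-KD replicate 4 stood apart on the first principal component (49.4% of the variance). Its summed choroid plexus markers were at 7784 CPM against 67.1 to 1851 CPM in the remaining 13 libraries, and its summed astrocyte markers were the lowest. Its summed hippocampal neuron markers were the highest (3847 CPM). It also had the fewest counts per sequenced read, 1.40 against 1.80 to 2.08 in the remaining libraries. The part of library quality in its values was not tested. For the members and transcript shares on which these libraries bear most, values without them are also given. In bulk tissue, fewer cells of a type and less RNA per cell cannot be told apart.

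Levels of different genes were compared per length of transcript. Il33 (mean 40.2 TPM, transcript abundance scaled for length and library size), Il18 (38.3 TPM) and Il1rap (32.8 TPM) were the most abundant, followed by Il1r1 (6.72 TPM). Sigirr (0.964 TPM) and Il1a (0.923 TPM) came next, and Il1b (0.283 TPM), Il1rl1 (0.112 TPM), Il18r1 (0.0321 TPM) and Il1rn (0.0281 TPM) were the least abundant. The order was the same in every library between Il1rap and Il1r1, between Il1r1 and Sigirr, and between Il1a and Il1b (14 of 14). Neighbours without a fixed order were Il33 and Il18 (Il33 higher in 7 of 14), Il18 and Il1rap (11 of 14), Sigirr and Il1a (8 of 14), Il1b and Il1rl1 (12 of 14), Il1rl1 and Il18r1 (13 of 14) and Il18r1 and Il1rn (7 of 14). Per length, then, the alarmins Il33 and Il18 and the shared accessory chain stood well above the inducible ligand Il1b, its antagonist and the ligand-binding receptors for IL-33 and IL-18.

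**Figure D1:**
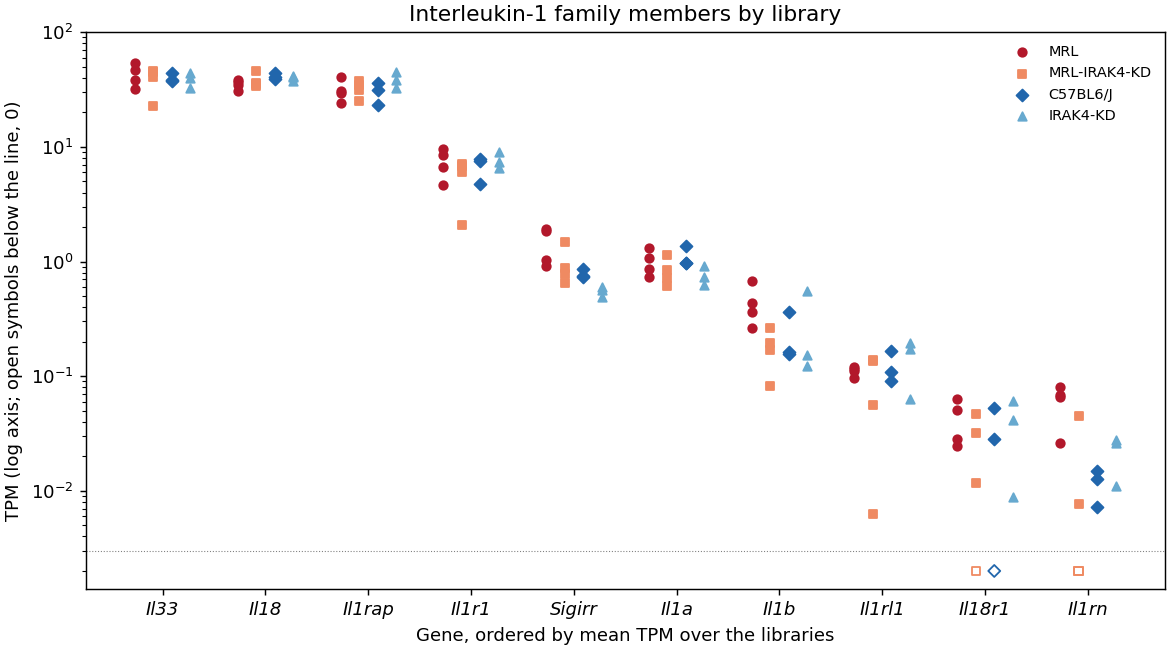
TPM of each member in each of the 14 libraries (points, coloured by group) on a log axis, with genes ordered by mean TPM and open symbols below the dotted line for 0. Il33, Il18 and Il1rap lie between 22.8 and 54.4 TPM in all libraries, and Il1rn and Il18r1 stay below 0.1 TPM.

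Il1b (ENSMUSG00000027398.13, mm10 chromosome 2, 129364570 to 129371139, minus strand) encodes IL-1β, the inducible ligand that caspase-1 cleaves to its active form. In MRL libraries 1 to 4 it had 0.277, 0.438, 0.171 and 0.249 CPM (counts scaled to library size), and in MRL-IRAK4-KD libraries 0.118, 0.171, 0.126 and 0.0644 CPM. In C57BL6/J libraries it had 0.227, 0.104 and 0.101 CPM, and in IRAK4-KD libraries 0.0941, 0.350 and 0.0739 CPM. The MRL libraries were the higher ones, but the lowest MRL and the highest MRL-IRAK4-KD library met at 0.171 CPM, and 1 IRAK4-KD and 1 C57BL6/J library lay within the MRL range. The mean was 0.284 ± 0.112 CPM (SD, n = 4) in MRL and 0.120 ± 0.0438 CPM (SD, n = 4) with the kinase-dead form. The log2 fold change was 1.24 ± 0.52 (SE; edgeR unadjusted p = 0.0323, adjusted p = 0.437). The exact permutation test on log2(CPM + 0.1) gave a two-sided p of 0.0571, where 4 against 4 libraries cannot go below 0.0286. Without MRL replicate 2 the log2 fold change of Il1b was 0.96 (edgeR adjusted p = 0.560). Omitting MRL-IRAK4-KD replicate 4 gave 1.04 (edgeR adjusted p = 0.605). In the remaining comparisons its log2 fold change was 0.26 ± 0.60 in IRAK4-KD over C57BL6/J (edgeR adjusted p = 1), 0.97 ± 0.57 in MRL over C57BL6/J (edgeR adjusted p = 0.931) and -0.52 ± 0.55 in MRL-IRAK4-KD over IRAK4-KD (edgeR adjusted p = 0.749). In MRL over MRL-IRAK4-KD either omission, or that of MRL-IRAK4-KD replicate 1 or 3, brought the unadjusted p above 0.05.

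The 250 bases before the Il1b start (GRCm38.p6, chr2:129371140-129371389, minus strand, RefSeq) are shown because inducible cytokine genes often have a TATA box. TATAAA on either strand (capitals) begins 31 bases before the start, as it does 32 bases before the start of Il1a, and 12.4% of 32851 mouse promoter windows of this length hold it.
Il1b promoter: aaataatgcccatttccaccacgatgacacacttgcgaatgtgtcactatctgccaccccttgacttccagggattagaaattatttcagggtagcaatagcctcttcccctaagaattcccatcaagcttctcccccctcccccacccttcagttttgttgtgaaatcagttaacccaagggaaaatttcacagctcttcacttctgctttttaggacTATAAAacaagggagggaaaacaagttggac

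Markers of neutrophils, which also make IL-1β, differed between the groups beside Il1b. The summed level of 8 neutrophil markers was 7.88, 33.7, 1.89 and 21.3 CPM in MRL libraries 1 to 4 and between 0.407 and 3.69 CPM in MRL-IRAK4-KD libraries. It was between 1.15 and 3.29 CPM in C57BL6/J and between 2.26 and 5.98 CPM in IRAK4-KD libraries. At an unadjusted edgeR p below 0.05, 7 of the 8 markers were higher in MRL than in MRL-IRAK4-KD mice, beside 5.14% of all genes. Of these markers 0 passed adjustment (lowest edgeR adjusted p = 0.227). In MRL over C57BL6/J mice 7 of 8 were also higher at that threshold, beside 5.55% of all genes in either direction. The MRL library with the most Il1b also had the highest marker sum, and the MRL library with the least Il1b had the lowest. The IRAK4-KD library with 0.350 CPM of Il1b had a sum of 4.14 CPM, below that of another IRAK4-KD library with little Il1b. Summed microglial markers were 392 to 501 CPM in MRL and 362 to 375 CPM in MRL-IRAK4-KD libraries, and 5 blood genes summed to between 83.9 and 369 CPM against 52.9 to 193 CPM. The part of these cells in the Il1b difference was not tested.

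**Figure D2:**
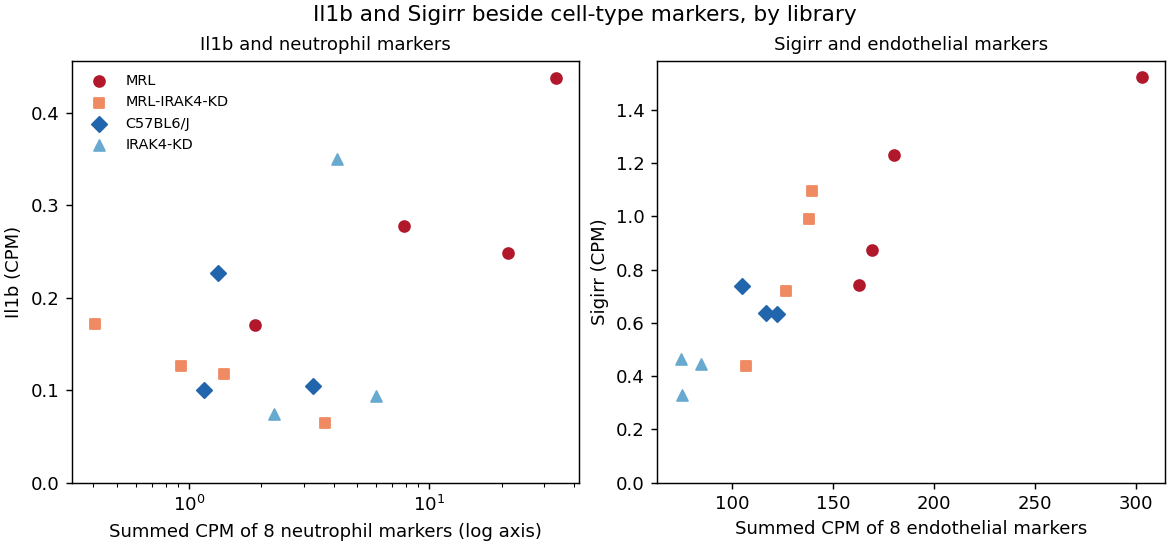
Il1b (left) and Sigirr (right) in CPM against the summed CPM of 8 neutrophil markers (log axis) and 8 endothelial markers, with 1 point per library coloured by group. Of the 4 MRL libraries, 3 lie at the right of the neutrophil panel, and the 3 IRAK4-KD libraries are lowest for endothelial markers (74.4 to 84.5 CPM).

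The antagonist gene Il1rn (ENSMUSG00000026981.15, chromosome 2, 24336853 to 24351494, plus strand) encodes the receptor antagonist, which occupies IL-1R1 without signalling. It was close to the limit of detection, with 15, 47, 31 and 39 counts in MRL libraries and 27, 0, 4 and 0 in MRL-IRAK4-KD libraries. C57BL6/J libraries held 3, 5 and 6 counts and IRAK4-KD libraries 5, 12 and 17. All MRL libraries were above all C57BL6/J libraries, whereas MRL-IRAK4-KD replicate 1 lay within the MRL range. A count of 0 allows up to 0.00842 CPM in MRL-IRAK4-KD replicate 2 and 0.00966 CPM in replicate 4 (3 counts). The log2 fold change of MRL over MRL-IRAK4-KD was 1.95 ± 1.06 (SE; edgeR unadjusted p = 0.0865, adjusted p = 0.453), and that of MRL over C57BL6/J was 2.27 ± 1.21 (unadjusted p = 0.0818, adjusted p = 0.917). The two-sided exact permutation p was 0.0571 in both, which for MRL against C57BL6/J is the smallest that 4 against 3 libraries allow. Without MRL-IRAK4-KD replicate 1 the log2 fold change of Il1rn over MRL-IRAK4-KD was 4.19 (edgeR adjusted p = 0.402), with 4 counts left in that group. The counts of Il1rn fell on different transcripts in different libraries of 1 group. In MRL replicates 3 and 4 all 31 and 39 counts were of the transcript that encodes the 178-residue secreted form, and in MRL replicates 1 and 2 all 15 and 47 counts were of a transcript that starts upstream and encodes 159 residues.

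Il1a (ENSMUSG00000027399.1, chromosome 2, 129299610 to 129309972, minus strand) encodes IL-1α, which is active without cleavage and is released from damaged cells. It had 1.06, 0.868, 0.699 and 1.32 CPM in MRL and 0.722, 1.08, 0.579 and 0.963 CPM in MRL-IRAK4-KD libraries. It had 1.25, 0.915 and 0.912 CPM in C57BL6/J and 0.562, 0.846 and 0.645 CPM in IRAK4-KD libraries. The lpr groups overlapped over most of their range, and the 3 IRAK4-KD libraries lay below the 3 C57BL6/J libraries. Its log2 fold change in IRAK4-KD over C57BL6/J was -0.58 ± 0.30 (SE; edgeR unadjusted p = 0.0711, adjusted p = 1), with an exact permutation p of 0.1, the smallest that 3 against 3 libraries allow. Without the library labelled IRAK4-KD replicate 3 it was -0.54 (edgeR adjusted p = 1). The lpr pair gave 0.24 ± 0.26 (adjusted p = 0.705).

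Il18 and Il33 showed no difference beyond their spread. Il18 (ENSMUSG00000039217.13, chromosome 9, 50554827 to 50581840, plus strand), a ligand that caspase-1 activates, ranged from 12.8 to 17.4 CPM in 13 libraries and was 21.97 CPM in MRL-IRAK4-KD replicate 4. Its log2 fold change was -0.14 ± 0.15 in MRL over MRL-IRAK4-KD mice (SE; edgeR adjusted p = 0.708) and 0.052 ± 0.096 without that library. Il33 (ENSMUSG00000024810.16, chromosome 19, 29925114 to 29960718, plus strand), the nuclear alarmin, had 67.8, 49.2, 56.1 and 40.8 CPM in MRL and 51.4, 56.2, 54.7 and 32.3 CPM in MRL-IRAK4-KD libraries. It ranged from 44.2 to 50.6 CPM in C57BL6/J and from 38.0 to 49.4 CPM in IRAK4-KD libraries. The groups overlapped in each comparison, and MRL-IRAK4-KD replicate 4 was again at the edge, now as the lowest of all. The log2 fold change of Il33 was 0.14 ± 0.18 (adjusted p = 0.770) with that library and -0.010 ± 0.14 without it. Il33 lies 4.33 Mb from Fas on the same chromosome.

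**Figure D3:**
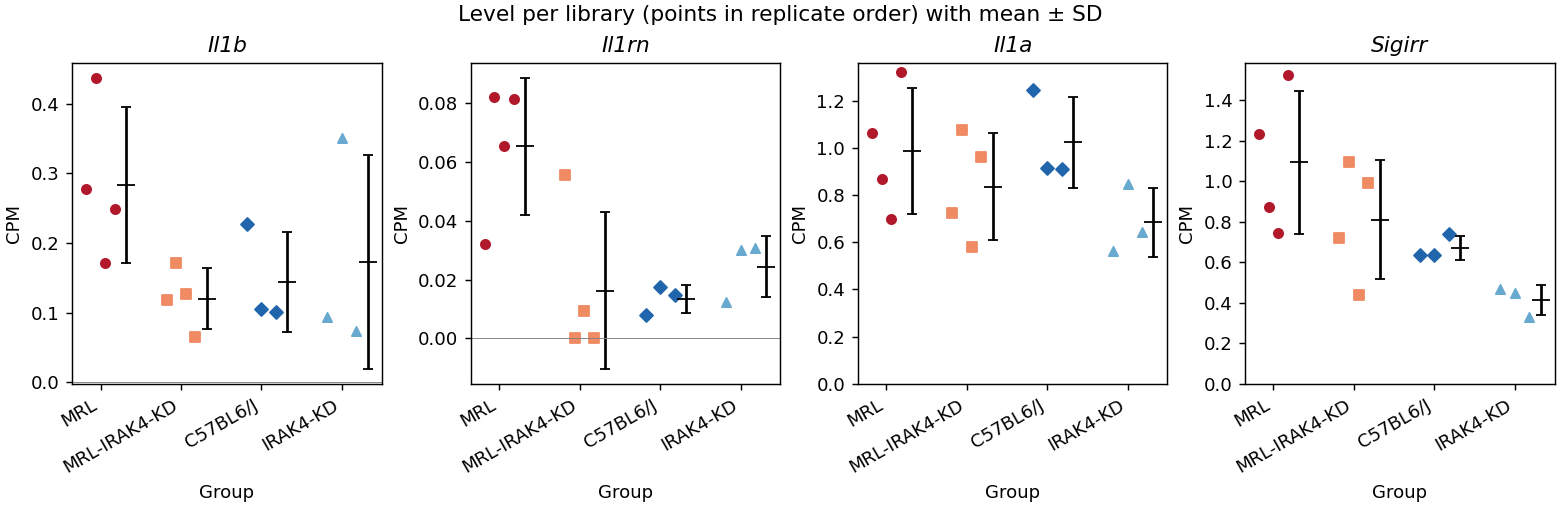
CPM of Il1b, Il1rn, Il1a and Sigirr in each library by group, with points in replicate order and the mean ± SD beside them. Il1b and Il1rn are highest in MRL libraries with overlap, and Sigirr is lowest in the 3 IRAK4-KD libraries except for 1 MRL-IRAK4-KD library at 0.436 CPM.

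The signalling receptors showed no difference beyond their spread. Il1r1 (ENSMUSG00000026072.12, chromosome 1, 40225080 to 40317257, plus strand), which binds IL-1, had 21.99, 11.3, 15.7 and 20.8 CPM in MRL and 17.7, 15.3, 13.9 and 7.11 CPM in MRL-IRAK4-KD libraries. It had between 10.6 and 18.9 CPM in the 6 libraries without lpr by label. MRL-IRAK4-KD replicate 4 was the lowest of the 14, and the other libraries of that group lay within the MRL range. The log2 fold change of Il1r1 was 0.37 ± 0.27 (SE; edgeR adjusted p = 0.560) and, without replicate 4, 0.16 ± 0.22. Il1rap (ENSMUSG00000022514.14, chromosome 16, 26581704 to 26730117, plus strand), the accessory chain of the IL-1, IL-33 and IL-36 receptors, had 76.1, 45.2, 54.8 and 55.7 CPM in MRL and 59.7, 65.7, 60.3 and 55.1 CPM in MRL-IRAK4-KD libraries. It had 59.8, 41.5 and 55.3 CPM in C57BL6/J and 55.4, 64.9 and 73.4 CPM in IRAK4-KD libraries. All groups overlapped, and the highest and the 2 lowest libraries were of MRL and C57BL6/J mice. Its log2 fold changes were -0.055 ± 0.16 in MRL over MRL-IRAK4-KD (adjusted p = 0.914) and 0.31 ± 0.18 in IRAK4-KD over C57BL6/J mice (adjusted p = 1).

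The receptors for IL-18 and IL-33 were sparse. Il18r1 (ENSMUSG00000026070.15, chromosome 1, 40465552 to 40500854, plus strand) had between 0 and 64 counts per library, with 0 in MRL-IRAK4-KD replicate 3 and in C57BL6/J replicate 2, where a count of 0 allows up to 0.00689 and 0.0104 CPM. Its highest libraries were in MRL (0.134 CPM) and IRAK4-KD mice (0.118 CPM), and every group reached down to 0.0338 CPM or less. Its log2 fold change of MRL over MRL-IRAK4-KD was 0.84 ± 1.10 (SE; edgeR adjusted p = 0.771), and no difference was detectable at this depth. Il1rl1 (ENSMUSG00000026069.15, chromosome 1, 40429570 to 40465415, plus strand), also called ST2, had 0.316, 0.266, 0.249 and 0.245 CPM in MRL and 0.151, 0.300, 0.317 and 0.0193 CPM in MRL-IRAK4-KD libraries. It had 0.341, 0.202 and 0.187 CPM in C57BL6/J and 0.431, 0.158 and 0.375 CPM in IRAK4-KD libraries. MRL-IRAK4-KD replicate 4, with 6 counts, was far below the rest. The log2 fold change of Il1rl1 in MRL over MRL-IRAK4-KD was 0.45 ± 0.58 (adjusted p = 0.767) and without that library 0.080 ± 0.37. Il1r1, Il1rl1 and Il18r1 lie within 276 kb of each other.

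Sigirr (ENSMUSG00000025494.8, chromosome 7, 141091175 to 141100572, minus strand) encodes a receptor that dampens IL-1 and Toll-like receptor signalling. It had 1.23, 0.873, 0.743 and 1.52 CPM in MRL and 0.720, 1.09, 0.436 and 0.992 CPM in MRL-IRAK4-KD libraries. It had 0.633, 0.637 and 0.740 CPM in C57BL6/J and 0.466, 0.445 and 0.328 CPM in IRAK4-KD libraries. All MRL libraries were above all C57BL6/J libraries, by a gap of 0.743 to 0.740 CPM at the closest. All IRAK4-KD libraries were below all C57BL6/J libraries. Of all Sigirr counts, 18.1% were assigned to Sigirr-208, a transcript with a retained intron. It had 23, 151, 65 and 247 counts in MRL and 1, 163, 0 and 0 in MRL-IRAK4-KD libraries. In C57BL6/J libraries it had 0, 50 and 0 counts, and in IRAK4-KD libraries 75, 69 and 0. Levels and tests of Sigirr are of all its transcripts together, and whether the groups separate without this one was not tested. The log2 fold change was 0.71 ± 0.32 in MRL over C57BL6/J (SE; edgeR unadjusted p = 0.0477, adjusted p = 0.899) and 0.97 ± 0.33 in MRL-IRAK4-KD over IRAK4-KD mice (unadjusted p = 0.0105, adjusted p = 0.553). It was -0.70 ± 0.34 in IRAK4-KD over C57BL6/J (unadjusted p = 0.0626, adjusted p = 1) and 0.43 ± 0.30 in MRL over MRL-IRAK4-KD mice (adjusted p = 0.537). In MRL-IRAK4-KD over IRAK4-KD mice, leaving out 1 library at a time gave Sigirr log2 fold changes of 0.78 to 1.17. Without both MRL-IRAK4-KD replicate 4 and the library labelled IRAK4-KD replicate 3, Sigirr in MRL-IRAK4-KD over IRAK4-KD mice had a log2 fold change of 0.72 (edgeR adjusted p = 0.771), with an unadjusted p above 0.05. Without MRL replicate 4 its difference from C57BL6/J was 0.52 (edgeR adjusted p = 0.997), likewise with an unadjusted p above 0.05, as it also was without MRL replicate 1, MRL-IRAK4-KD replicate 1 or any 1 of the C57BL6/J or IRAK4-KD libraries. Without the library labelled IRAK4-KD replicate 3 the log2 fold change of Sigirr in IRAK4-KD over C57BL6/J was -0.56 ± 0.39 (SE; edgeR adjusted p = 1).

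Endothelial markers followed the same order of groups as Sigirr. The summed level of 8 markers was 163 to 303 CPM in MRL, 107 to 140 CPM in MRL-IRAK4-KD, 104.6 to 122 CPM in C57BL6/J and 74.4 to 84.5 CPM in IRAK4-KD libraries. At an unadjusted edgeR p below 0.05, 6 of the 8 markers were higher in MRL than in MRL-IRAK4-KD mice, beside 5.14% of all genes. Slco1a4, named after its values were seen, passed adjustment (edgeR adjusted p = 0.0434). In IRAK4-KD over C57BL6/J 5 were lower at that threshold, beside 3.8% of all genes in either direction, and 0 passed adjustment (lowest adjusted p = 0.271). Sigirr had its lowest unadjusted p-values in the comparisons across lpr. In MRL over C57BL6/J 6 of the 8 markers were higher at that threshold, beside 5.55% of all genes in either direction (lowest edgeR adjusted p = 0.368). In MRL-IRAK4-KD over IRAK4-KD mice 7 of 8 were higher, beside 8.63% (lowest edgeR adjusted p = 0.112). In both, 0 passed adjustment. MRL replicate 4 was highest both in Sigirr and in these markers. This order of groups was not particular to endothelial markers. Medians of the summed microglial markers were 413 CPM in MRL, 372 CPM in MRL-IRAK4-KD, 345 CPM in C57BL6/J and 341 CPM in IRAK4-KD libraries. The part of endothelial cells or microglia in the Sigirr differences was not tested.

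Groups without any overlap were counted over all members. None of the 10 members separated MRL from MRL-IRAK4-KD libraries, where 5.26% of all genes did, and none separated MRL-IRAK4-KD from IRAK4-KD libraries, where 8.74% did. Il1a and Sigirr separated IRAK4-KD from C57BL6/J libraries (2 of 10, beside 11.2% of all genes). Il1rn and Sigirr separated MRL from C57BL6/J libraries (2 of 10, beside 9.63%). Over the 5 ligands the median log2 fold change of MRL over MRL-IRAK4-KD was 0.24, with 4 of 5 above 0, and over the 5 receptors it was 0.43, with 4 of 5 above 0, beside a median of 0.0023 over all genes tested. This receptor median rests in part on MRL-IRAK4-KD replicate 4, without which Il1r1 was at 0.16 and Il1rl1 at 0.080. The receptor median was also above 0 in IRAK4-KD over C57BL6/J (0.31, 4 of 5 above 0) and was -0.31 in MRL-IRAK4-KD over IRAK4-KD mice (1 of 5 above 0), where the ligand medians were -0.068 and 0.085 and the medians over all genes -0.0079 and 0. These comparisons share libraries, so that the same mice enter several of these values. The interaction of lpr with the mutation was 1.49 ± 0.79 for Il1b (SE; edgeR unadjusted p = 0.0799, adjusted p = 0.914) and 2.81 ± 1.62 for Il1rn (unadjusted p = 0.106, adjusted p = 0.914).

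**Figure D4:**
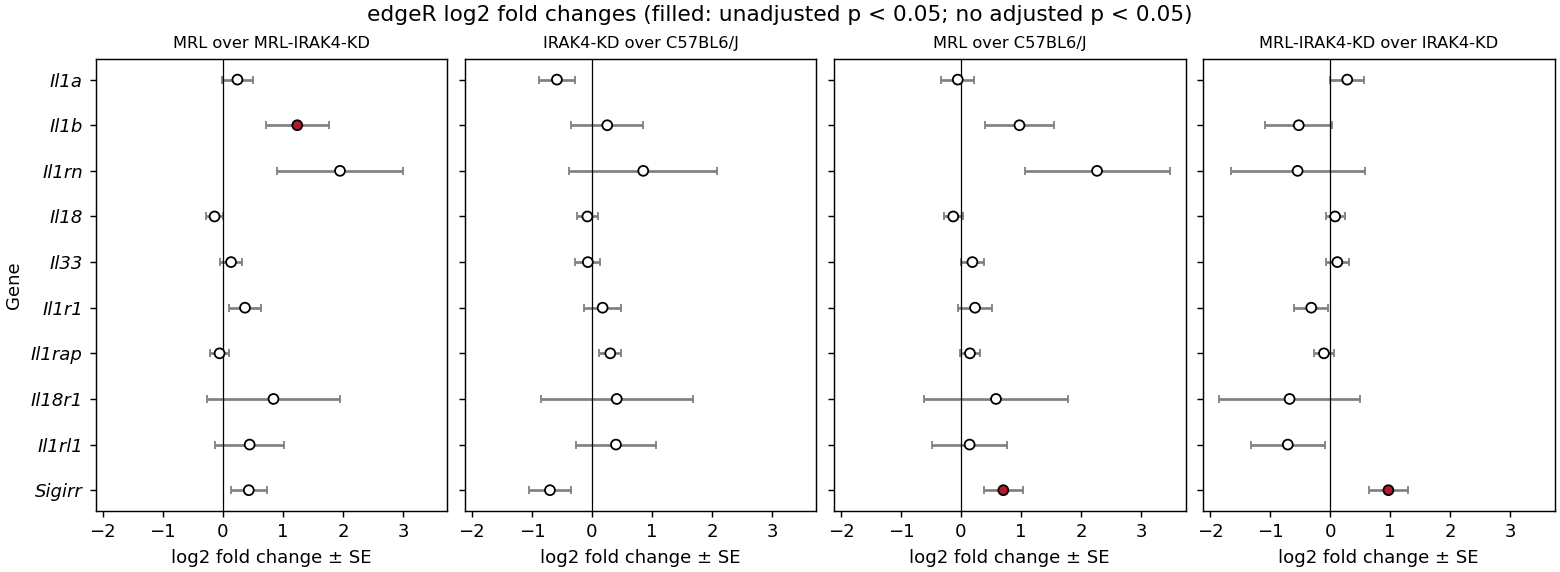
edgeR log2 fold changes of the 10 members in 4 comparisons, with bars for the SE and filled points for an unadjusted p below 0.05. Il1b in MRL over MRL-IRAK4-KD and Sigirr in both comparisons across lpr are the 3 filled points, and Il1rn and Il18r1 have the widest errors.

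Several members are read from more than 1 start site or as more than 1 protein, and the transcript table splits their counts by the StringTie estimate. That split divides reads of overlapping transcripts, so that a share can be uncertain beyond the counting error of its interval. The members with separable starts are shown with the 250 bases before each start (GRCm38.p6, plus strand, RefSeq), with TATAAA in capitals. Il33 has an upstream start (chr19:29924863-29925112) and a downstream start (chr19:29945540-29945789). TATAAA lies 29 bases before the downstream start and 203 bases before the upstream start. The Il1r1 starts (chr1:40224830-40225079 and chr1:40266336-40266585) hold no TATAAA on either strand and differ in GC content, with 48.4% upstream and 60.4% downstream, beside a median of 52.4% over all windows.
Il33 upstream start: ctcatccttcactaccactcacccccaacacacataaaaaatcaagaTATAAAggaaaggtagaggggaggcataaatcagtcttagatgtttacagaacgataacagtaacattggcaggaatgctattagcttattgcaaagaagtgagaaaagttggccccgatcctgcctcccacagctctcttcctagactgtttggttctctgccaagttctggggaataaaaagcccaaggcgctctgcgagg
Il33 downstream start: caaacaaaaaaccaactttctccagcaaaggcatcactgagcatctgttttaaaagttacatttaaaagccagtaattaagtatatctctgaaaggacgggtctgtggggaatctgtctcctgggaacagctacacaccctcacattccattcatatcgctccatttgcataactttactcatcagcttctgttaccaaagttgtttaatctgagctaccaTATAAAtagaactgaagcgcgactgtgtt
Il1r1 upstream start: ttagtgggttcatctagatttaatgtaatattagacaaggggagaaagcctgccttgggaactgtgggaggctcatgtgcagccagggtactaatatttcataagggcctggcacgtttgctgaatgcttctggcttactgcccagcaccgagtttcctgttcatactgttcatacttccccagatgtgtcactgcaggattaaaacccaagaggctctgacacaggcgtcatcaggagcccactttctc
Il1r1 downstream start: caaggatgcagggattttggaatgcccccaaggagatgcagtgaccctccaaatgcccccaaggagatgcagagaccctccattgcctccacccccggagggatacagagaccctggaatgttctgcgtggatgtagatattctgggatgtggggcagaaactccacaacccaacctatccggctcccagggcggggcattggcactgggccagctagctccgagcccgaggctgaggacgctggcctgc

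Il1r1 counts came mostly from the downstream start in 13 of 14 libraries. The transcript of the upstream start took 2.31%, 0.0463%, 15.2% and 13.1% of the counts in MRL libraries and between 0% and 22.5% in the 6 libraries without lpr by label. In MRL-IRAK4-KD libraries it took 22.04%, 0%, 14.7% and 100%. MRL-IRAK4-KD replicate 4 is the exception, with 2208 of 2208 counts on the upstream start (95% Wilson interval 99.8% to 100%). The same library had the highest choroid plexus and the lowest Il1r1 level, and the part of either in this share was not tested. Means over MRL (7.66% ± 7.59) and MRL-IRAK4-KD mice (34.2% ± 44.8, SD, n = 4 each) did not differ beyond this spread (two-sided exact permutation p = 0.314). Without replicate 4 the mean of the latter was 12.2% ± 11.2 (SD, n = 3; exact permutation p = 0.629).

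Il33 counts came mostly from the upstream start in all 14 libraries. The downstream start took 19.2%, 12.02%, 9.09% and 9.70% of Il33 counts in MRL and 20.5%, 23.998%, 20.4% and 0.0997% in MRL-IRAK4-KD libraries. It took 4.08%, 18.4% and 8.81% in C57BL6/J and 34.4%, 0.0107% and 5.50% in IRAK4-KD libraries. Of the 14 libraries, MRL-IRAK4-KD replicate 4 (10 of 10032 counts) and IRAK4-KD replicate 2 (2 of 18666 counts) were the ones almost without it, and the spread within IRAK4-KD mice covered that of all other groups. The means of MRL and MRL-IRAK4-KD mice were 12.5% ± 4.65 and 16.3% ± 10.9 (SD, n = 4; exact permutation p = 0.514). This value rests on MRL-IRAK4-KD replicate 4. Without it the mean with the kinase-dead form was 21.7% ± 2.03 (SD, n = 3). The groups then did not overlap, by a gap of 19.2% to 20.4% at the closest. The exact permutation p was 0.0571, the smallest that 4 against 3 libraries allow. This separation appeared only with that library left out and is among several transcript shares compared. How often other shares separate in this way was not counted.

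Il1rap makes a full-length receptor chain, a brain-enriched chain with another intracellular end, and a soluble form. The coding sequence of the 570-residue chain (Il1rap-201) and of the 685-residue brain form (Il1rap-202) is shared over 448 residues, and the 360-residue soluble form (Il1rap-206) leaves it after 350 residues. The lines show GENCODE M21 coding sequence around each fork, with bases after it in capitals.
Il1rap-201 at the fork with Il1rap-202: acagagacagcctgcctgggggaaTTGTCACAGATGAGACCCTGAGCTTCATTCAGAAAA
Il1rap-202 at the fork with Il1rap-201: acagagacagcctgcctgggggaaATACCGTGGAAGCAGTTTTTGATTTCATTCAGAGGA
Il1rap-201 at the fork with Il1rap-206: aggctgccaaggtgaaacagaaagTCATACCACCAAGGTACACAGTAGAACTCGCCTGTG
Il1rap-206 at the fork with Il1rap-201: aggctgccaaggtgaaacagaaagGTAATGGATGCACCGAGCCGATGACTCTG

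The brain form took 31.0% to 41.1% of Il1rap counts in 13 libraries and 52.2% in MRL-IRAK4-KD replicate 4. The 570-residue chain took 23.8% to 33.1% in those 13 libraries and 7.55% in that one. The brain form was thus the larger of the pair in every library, and its share was 35.4% ± 1.58 in MRL, 38.5% ± 9.38 in MRL-IRAK4-KD (SD, n = 4 each), 38.0% ± 2.73 in C57BL6/J and 36.1% ± 1.08 in IRAK4-KD mice (n = 3 each). It did not differ beyond that spread between MRL and MRL-IRAK4-KD mice (exact permutation p = 0.800, and 0.457 without MRL-IRAK4-KD replicate 4) or between IRAK4-KD and C57BL6/J mice (p = 0.300). The soluble form took between 0.888% and 1.84% of the counts. A short transcript marked for nonsense-mediated decay at the 3′ end took 31.9% ± 3.26 in MRL and 37.0% ± 2.78 in MRL-IRAK4-KD mice (exact permutation p = 0.0857).

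Il1rl1 makes a 567-residue membrane receptor and a 337-residue soluble decoy that binds IL-33. The pair shares 328 residues before the fork shown here from GENCODE M21, with the bases after it in capitals.
Il1rl1 membrane form: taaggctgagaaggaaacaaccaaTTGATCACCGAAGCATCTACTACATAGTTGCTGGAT
Il1rl1 soluble form: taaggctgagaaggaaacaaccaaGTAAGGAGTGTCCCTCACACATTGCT
The soluble form took 17.5%, 36.2% and 21.1% of Il1rl1 counts in C57BL6/J libraries and 9.20%, 0% and 7.21% in IRAK4-KD libraries. It took 0%, 11.8%, 0% and 11.97% in MRL and 0%, 15.9%, 10.9% and 0% in MRL-IRAK4-KD libraries. The estimated share was higher in the C57BL6/J libraries than in the others, on 16 to 22 counts of the soluble form each, but not beyond counting error in each case. The 95% Wilson interval of C57BL6/J replicate 1 (11.8% to 25.02%) overlapped those of MRL replicates 2 (7.62% to 17.9%) and 4 (7.26% to 19.1%). It also overlapped those of MRL-IRAK4-KD replicates 2 (10.2% to 23.98%) and 3 (6.70% to 17.2%). The interval of C57BL6/J replicate 3 overlapped those of the same libraries. MRL-IRAK4-KD replicate 4 had 6 Il1rl1 counts in all, so that its 0% allows a share of up to 50.0%. The interval of IRAK4-KD replicate 1 (5.74% to 14.4%) overlapped those of C57BL6/J replicate 1 and replicate 3 (13.4% to 31.5%). Those of IRAK4-KD replicates 2 and 3 overlapped no C57BL6/J interval as computed from counts. The counts exceed the reads, with 1.80 counts per read in C57BL6/J replicate 1 and 1.91 in IRAK4-KD replicate 3. These intervals are thus narrower than the reads allow and cannot show a separation beyond counting error. IRAK4-KD replicates 1 and 3 held 16 and 15 counts of the soluble form, so that their lower share went with more counts of the membrane form. The means of 24.9% ± 9.95 in C57BL6/J and 5.47% ± 4.84 in IRAK4-KD mice (SD, n = 3) gave an exact permutation p of 0.1, the smallest that 3 against 3 libraries allow. Without the library labelled IRAK4-KD replicate 3 the latter mean was 4.60% ± 6.50 (SD, n = 2; exact permutation p = 0.200, again the smallest possible).

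**Figure D5:**
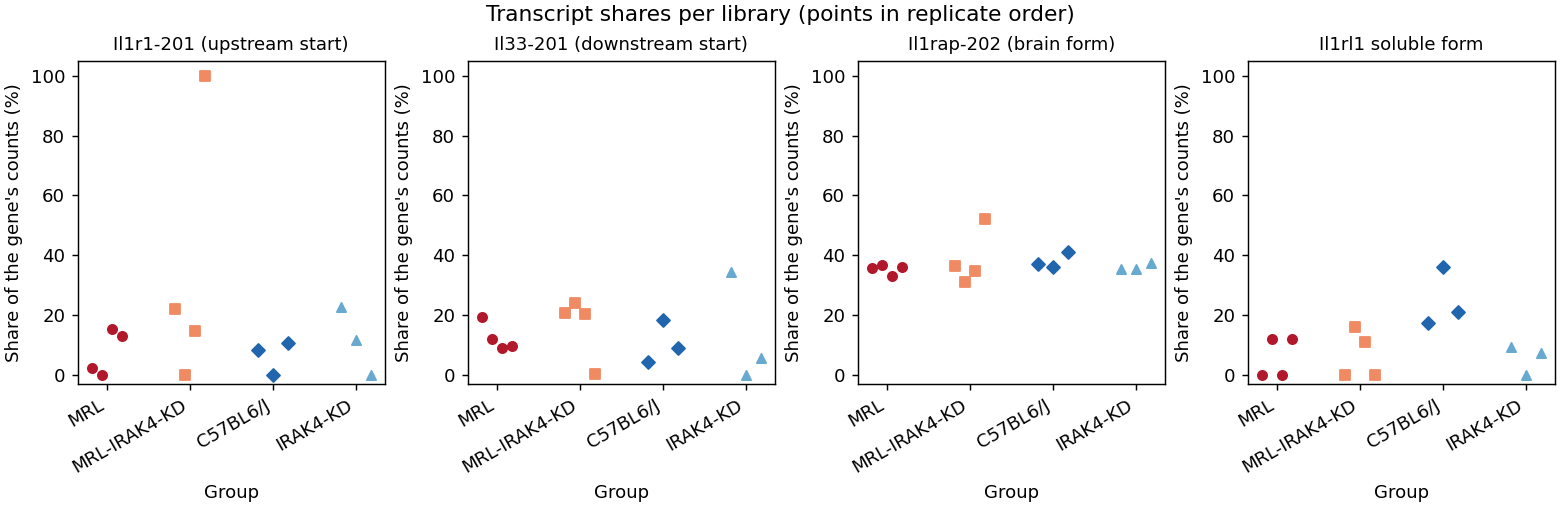
Share of each gene's counts in percent, per library and group, of the upstream-start transcript of Il1r1, the downstream-start transcript of Il33, the brain form Il1rap-202 and the soluble form of Il1rl1. MRL-IRAK4-KD replicate 4 is at 100% for Il1r1 and at 52.2% for Il1rap-202, and the 3 C57BL6/J libraries have the highest estimates for soluble Il1rl1.

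Further lists of genes of the pathway were counted in the same fit for MRL over MRL-IRAK4-KD mice. Of all genes, 5.14% were higher and 6.23% lower there at an unadjusted p below 0.05. The lists were drawn up with earlier results of these data known, so that their counts are descriptions. By edgeR, 0 of the listed genes passed an adjusted p of 0.05 in this comparison. Of 9 tested genes among the other ligands, receptors and binding proteins of the family, 2 were higher at an unadjusted p below 0.05 and 0 lower. They were Il18bp, the soluble inhibitor of IL-18 (log2 fold change 0.36 ± 0.13, SE; edgeR adjusted p = 0.437), and Il1rapl1, a synaptic relative of the accessory chain (0.53 ± 0.17, adjusted p = 0.408). Of 15 genes between receptor and NF-kappaB, such as adaptors and kinases, 0 were higher and 0 lower at that threshold, with a median log2 fold change of 0.17.

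Of 11 inflammasome and cytokine-processing genes, 3 were higher and 0 lower in MRL mice at that threshold, with a median log2 fold change of 0.52. They were Aim2, a sensor of DNA (0.68 ± 0.21, SE; edgeR adjusted p = 0.403), Casp4, the caspase that senses lipopolysaccharide (0.99 ± 0.40, adjusted p = 0.437), and Mefv, which encodes pyrin. Mefv had 34, 32, 16 and 37 counts in MRL libraries and 0 counts in all 10 others, where a count of 0 allows up to 0.0104 CPM in the least deep library. It did not pass in edgeR (unadjusted p = 0.000666, adjusted p = 0.259) and passed in DESeq2 (adjusted p = 0.0136) and limma-voom (adjusted p = 0.000208). Pyrin is known from neutrophils and monocytes, and the part of such cells was not tested.

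Of 16 genes known to respond to IL-1, 7 were higher and 0 lower in MRL mice at that threshold, with a median log2 fold change of 0.93. This list, too, was drawn up with earlier results known. It holds Ccl2, which the study had reported as higher in these MRL mice, so that the count is not independent support. In MRL over C57BL6/J mice 5 of the 16 were higher and 0 lower, beside 5.55% of all genes in either direction. The 7 genes higher in MRL over MRL-IRAK4-KD mice are Ccl2, Cxcl1, Icam1, Vcam1, Sele, Lcn2 and Zc3h12a. They encode chemokines, endothelial adhesion molecules, an iron-binding acute-phase protein and a ribonuclease that limits cytokine transcripts. In that comparison Icam1 had a log2 fold change of 0.86 ± 0.27 (SE; edgeR adjusted p = 0.402) and Lcn2 of 3.38 ± 1.04 (adjusted p = 0.401). Ccl2, at 1.48 ± 0.40, had an adjusted p of 0.343 by edgeR and of 0.0237 by DESeq2. For Lcn2, too, the lowest adjusted p among the alternatives run was below 0.05. The Lcn2 difference rests in part on MRL replicate 4. Lcn2 ranged from 0.906 to 15.1 CPM in MRL libraries, and without that library its log2 fold change was 1.88 (edgeR adjusted p = 0.643). Cxcl1, Vcam1, Sele and Zc3h12a had an unadjusted p above 0.05 without it, as had Il18bp and Casp4. In IRAK4-KD over C57BL6/J mice 0 of the 16 genes were higher or lower at that threshold, with a median log2 fold change of -0.15. Many of these genes also respond to other signals and are made by endothelial cells and neutrophils, whose marker levels are given above, and their part was not tested.

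Genes with the most similar profile were sought for the 4 members with a mean of at least 1 CPM, among 16104 genes and over the 14 libraries (Pearson r of log2(CPM + 0.1)). They were Copg2 and Rnf13 for Il33 (r from 0.93 to 0.94), Gfod1, C630043F03Rik and Slc39a14 for Il1r1 (r from 0.94 to 0.96), Ermp1, Luzp1 and Pip4k2a for Il1rap (r from 0.90 to 0.92) and Gm43175, Rpl30-ps9 and Gm43343 for Il18 (r from 0.94 to 0.95). These are descriptions over libraries of which 1 stands apart. Without MRL-IRAK4-KD replicate 4 the closest gene was Acsl1 for Il33, Atf6 for Il1rap and Aloxe3 for Il18, and C630043F03Rik and Gfod1 remained the closest pair for Il1r1.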

How the data were processed

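RNA was measured in 14 hippocampi. Per the labels, the authors used HISAT2 2.1.0, SAMtools 1.9 and StringTie 2.1.0 on build mm10. The deposited values are unnormalized integer counts for genes and for transcripts. StringTie derives counts from coverage, and totals were 1.40 to 2.08 counts per read of the sequencing sheet, so count precision is overstated. The annotation is not given in the sources used here, and all 55536 identifiers match GENCODE M21. Between 279941472 and 572398312 counts per library were available.

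edgeR 4.0.16 was run on genes whose counts summed to 10 or more (TMM normalization, robust quasi-likelihood F test, 4 groups in 1 model, R 4.3.3), with Benjamini-Hochberg adjustment over 38070 genes. CPM uses TMM sizes. TPM divides transcript counts by length. Single values and transcript shares were compared by two-sided exact permutation tests (scipy 1.17.1). Each library is 1 mouse, and litter or preparation batch is not given in the sources used here. On simulated counts of 38070 genes with 100 genes changed by a log2 of 1, 61% were recovered for MRL over MRL-IRAK4-KD and 60% for IRAK4-KD over C57BL6/J, and for a log2 change of 2, 99% and 94%. All changed genes had a mean above 1 CPM. Sigirr, Il1a, Il1rl1, Il1b, Il18r1 and Il1rn had lower means, so these shares do not apply to them. Alternatives tried were no filter, library size only, RLE size factors, filterByExpr, DESeq2 1.42.0, limma-voom (limma 3.58.1), only the groups compared, a replicate block, summed transcripts, halved counts, a pseudocount of 1, transcripts with at least 10 counts and each mouse left out.

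The members, gene lists and tests were chosen with earlier results of these data known. Named pathway genes were those at an unadjusted p below 0.05 in MRL over MRL-IRAK4-KD or IRAK4-KD over C57BL6/J, and the 3 genes most alike each member of at least 1 mean CPM were named, except 1 gene that is not reported here. Cell type markers were summed over lists fixed with them. Intervals and limits at 0 (3 counts) cover counting error only. The authors used DESeq2 1.30.1. Figures were drawn with matplotlib 3.10.9.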

Additional observations from a re-analysis of the deposited data

Results flagged for a closer look

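Of 36 groups of 4 libraries examined for a library far from the rest, 3 were marked, and chance marks about 1 group in 20. Il1rn in MRL-IRAK4-KD mice had its highest library, replicate 1, at 0.0557 CPM, far above the other 3. The downstream start of Il33 in MRL-IRAK4-KD mice had its lowest share, 0.0997%, in replicate 4. The Il1rap transcript marked for nonsense-mediated decay had its lowest share in MRL-IRAK4-KD mice, 32.8%, in replicate 1.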

How the results depend on the processing

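No member passed an adjusted p of 0.05 in any comparison under any of the alternatives run. The counts at an unadjusted p below 0.05 moved. In IRAK4-KD over C57BL6/J mice the count was 0, and it was 1 with DESeq2, 1 with limma-voom, 2 with only the 2 groups compared and 2 with a replicate block. In MRL over C57BL6/J mice the count was 1, and it was 0 with library size only, 2 with DESeq2, 3 with only the 2 groups compared and 2 with halved counts. In MRL-IRAK4-KD over IRAK4-KD mice it was 1, and 0 with limma-voom and 0 without both MRL-IRAK4-KD replicate 4 and the library labelled IRAK4-KD replicate 3, an alternative chosen after seeing the data. For the interaction it was 0, and 2 with limma-voom and 1 without both libraries. Leaving out 1 library at a time gave 0 to 1 in MRL over MRL-IRAK4-KD, 0 to 1 in IRAK4-KD over C57BL6/J, 0 to 2 in MRL over C57BL6/J, 1 to 2 in MRL-IRAK4-KD over IRAK4-KD and 0 to 1 for the interaction.

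Some log2 fold changes close to 0 changed sign. With limma-voom, Il18 was 0.042 and Il33 was -0.054 in MRL over MRL-IRAK4-KD, Il18 was -0.11 in MRL-IRAK4-KD over IRAK4-KD, and the interaction of Il33 was -0.088. Without both libraries, Il18 was 0.042 and Il33 was -0.019 in MRL over MRL-IRAK4-KD, Il1rn was 0.051, Il18 -0.17 and Il1rap 0.039 in MRL-IRAK4-KD over IRAK4-KD, and the interaction was 0.036 for Il18 and -0.16 for Il33. With the replicate block, Il1b was -0.0090 and Il18r1 -0.32 in IRAK4-KD over C57BL6/J, Il18r1 was -0.29 in MRL over C57BL6/J, and Il18 was -0.029 in MRL-IRAK4-KD over IRAK4-KD. Same-numbered libraries had correlations of their deviations between -0.25 and 0.37, so the numbers do not pair the mice. The cause of these moves was not tested.

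Leaving out 1 library at a time or both libraries named above, the log2 fold change of MRL over MRL-IRAK4-KD ranged from -0.20 to 0.052 for Il18, from -0.019 to 0.26 for Il33 and from -0.22 to 0.058 for Il1rap. In IRAK4-KD over C57BL6/J it ranged from -0.77 to 0.74 for Il1b, from -0.15 to 0.036 for Il33, from -0.0063 to 0.34 for Il1r1 and from -0.15 to 1.36 for Il18r1. In MRL over C57BL6/J it ranged from -0.21 to 0.12 for Il1a and from -0.0030 to 0.47 for Il1rl1. In MRL-IRAK4-KD over IRAK4-KD it ranged from -0.89 to 0.51 for Il1b, from -2.78 to 0.051 for Il1rn, from -0.17 to 0.15 for Il18 and from -0.20 to 0.039 for Il1rap, and the interaction from -0.27 to 0.036 for Il18 and from -0.16 to 0.20 for Il33. Differences in transcript share ranged, in percentage points, from -7.67 to 9.51 for the Il33 downstream start, from -0.48 to 10.8 for the Il1r1 upstream start, from -0.96 to 0.57 for Il1rap-201 and from -1.30 to 0.46 for the first Il18 start in IRAK4-KD over C57BL6/J. In MRL over MRL-IRAK4-KD they ranged from -5.60 to 1.46 for Il1rap-202, from -0.022 to 0.24 for Il1rap-206 and from -2.97 to 2.33 for soluble Il1rl1. Low counts of Il1rn and Il18r1 limit what could be detected.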
